A study of Mus musculus with 6 samples.

Results

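The expression of 10 genes of leukocyte adhesion was examined in mouse peritoneal macrophages: the integrin beta subunits Itgb2 and Itgb1, the alpha subunits Itgal, Itgam, Itgax, Itga4, Itga5 and Itgav, and the adhesion ligands Icam1 and Vcam1. They were chosen by name from the 54532 genes of the deposited FPKM table (fragments scaled by gene length and by a total for each library), and all 10 passed the filter of a mean of at least 1 FPKM that left 9794 genes for testing. The cells were wild-type macrophages of C57BL/6J mice aged 6 to 8 weeks, collected by peritoneal lavage 5 days after a thioglycolate injection and kept in culture overnight, so all groups held macrophages recruited by a sterile irritant. Control cells were untreated. Model cells received LPS, a bacterial endotoxin, at 500 ng/mL for 5.5 h and then ATP at 2 mM for 0.5 h, which together activate the NLRP3 inflammasome. MUS cells were given LPS and ATP at the same doses and times and in addition muscone, a macrocyclic ketone from musk, at 50 μM from 5 h after LPS, which is 0.5 h before ATP. RNA-seq of poly-A RNA was performed with 2 libraries per group, and neither the labels nor the methods say whether these came from separate mice or cultures, so the p-values measure only the spread between these libraries.

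An integrin is a pair of an alpha and a beta subunit that spans the cell membrane and joins the cytoskeleton to ligands outside the cell. Itgb2 encodes CD18, the shared beta subunit of the leukocyte integrins, and pairs with the products of Itgal (CD11a, forming LFA-1), Itgam (CD11b, forming Mac-1) and Itgax (CD11c). Itgb1 pairs with many alpha subunits, among them those of Itga4 (VLA-4, a receptor for Vcam1 and fibronectin), Itga5 (the classical fibronectin receptor) and Itgav (receptors for RGD-containing matrix proteins and for latent TGF-beta, with several beta subunits). Icam1 and Vcam1 are immunoglobulin-family ligands on the cell surface, Icam1 for the Itgb2 integrins and Vcam1 for VLA-4, and both are known as genes that inflammatory signals induce.

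Vcam1, Itgav and Itga5 were higher in Model than in Control, Vcam1 10.8-fold, Itgav 3.57-fold and Itga5 2.84-fold by the means of 2 libraries per group. Under the other scalings of the libraries Vcam1 and Itgav kept both their direction and their call, whereas Itga5 kept its direction and lost its call. Without Model replicate 1 none of the 10 was called, without Model replicate 2 only Itgav was, and the log2 fold change of Vcam1 fell from 3.54 to 2.31 without Control replicate 1, where it had 0.291 FPKM. No gene of the 10 was called lower on the deposited scale. Each of the 4 other scalings, 2 of which share their library totals, called 1 or 2 lower, namely Itgax, Itgb2 or both. In MUS against Model no gene of the 10 was called in either direction, nor was any of the 9794 genes tested (0%), and in MUS against Control Vcam1 and Itgav were called higher. In bulk RNA, fewer cells of a type and less RNA per cell cannot be told apart.

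The libraries held between 15526321 and 17135442 fragments on genes, of which a gene of the 10 had between 59 and 31019. The FPKM of the Control libraries are scaled to a total that is 1.45 and 1.34 times their own fragments on genes, against 0.909 to 0.998 times in the other libraries, and scaling every library to its fragments on genes moved the median log2 fold change of all genes in Model against Control from 0.04 to -0.42. Model replicate 1 stood apart with 24906 genes detected, against 17406 to 19200 in the others. On the deposited scale Control replicate 2 lay between Control replicate 1 and both Model libraries for 7 of the 10 genes (70.0%), against 45.9% of all genes tested. By share of fragments on genes, it no longer did so for Itgal, Icam1 and Itgb1, but did for Itgam. The median difference between the Control libraries was 0.69 on the log2(FPKM + 1) scale for the 10 genes and 0.29 for all genes tested, against 0.38 and 0.35 between the Model libraries. Where a library decided a call, the value without it was also computed.

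The genes of the CD11 subunits lie together on chromosome 7 in the deposited positions, which match GRCm38. Itgal (ENSMUSG00000030830) is at chr7:127296260-127335138, Itgam (ENSMUSG00000030786) at chr7:128062640-128118491 and Itgax (ENSMUSG00000030789) at chr7:128129547-128150657, all on the plus strand, and Itgax starts 11056 bases after the end of Itgam. Itgb2 (ENSMUSG00000000290) is at chr10:77530252-77565708 and Itgb1 (ENSMUSG00000025809) at chr8:128685654-128733200. Itga4 (ENSMUSG00000027009) at chr2:79255426-79333123 and Itgav (ENSMUSG00000027087) at chr2:83724397-83806916 share chromosome 2, and Itga5 (ENSMUSG00000000555) is on the minus strand at chr15:103344286-103366763. The ligand genes are Icam1 (ENSMUSG00000037405) at chr9:21015985-21028817 and Vcam1 (ENSMUSG00000027962), on the minus strand, at chr3:116109949-116129688.

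Promoter windows from 250 bases before to 50 bases after the start of transcription were taken from RefSeq on GRCm38.p6, which matched 7 of the 10 genes by symbol (all but Itgal, Itgb2 and Vcam1). They were searched on both strands for the NF-κB-type letters GGANNTTCC and GGGNNTTCC, the PU.1 and ETS-type letters GAGGAAG and the AP-1-type letters TGACTCA. Of 32851 promoter windows, 4.26% held GGANNTTCC, 5.82% GGGNNTTCC, 13.6% GAGGAAG and 5.20% TGACTCA. A match describes letters in the window and is neither a site nor a cause. The windows of Icam1, which had the widest difference in FPKM between the Control libraries of the 10 genes, of Itgav and Itga5, which were called in Model against Control, and of the neighbours Itgam and Itgax are given 5′ to 3′ on the strand of the gene, with matches in capitals.
Icam1 (chr9:21015690-21015989): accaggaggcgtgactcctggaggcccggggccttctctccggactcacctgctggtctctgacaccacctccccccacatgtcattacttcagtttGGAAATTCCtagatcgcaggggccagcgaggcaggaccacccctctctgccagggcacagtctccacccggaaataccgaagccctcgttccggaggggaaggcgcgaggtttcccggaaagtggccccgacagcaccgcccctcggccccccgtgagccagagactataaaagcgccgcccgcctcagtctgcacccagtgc
Itgav (chr2:83724147-83724446): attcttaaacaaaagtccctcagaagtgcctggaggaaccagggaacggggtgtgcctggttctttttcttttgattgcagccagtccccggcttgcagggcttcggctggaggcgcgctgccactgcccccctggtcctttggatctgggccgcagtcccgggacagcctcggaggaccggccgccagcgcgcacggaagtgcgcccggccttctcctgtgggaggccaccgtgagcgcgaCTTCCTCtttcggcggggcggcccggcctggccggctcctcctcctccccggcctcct
Itga5 (chr15:103366742-103367041): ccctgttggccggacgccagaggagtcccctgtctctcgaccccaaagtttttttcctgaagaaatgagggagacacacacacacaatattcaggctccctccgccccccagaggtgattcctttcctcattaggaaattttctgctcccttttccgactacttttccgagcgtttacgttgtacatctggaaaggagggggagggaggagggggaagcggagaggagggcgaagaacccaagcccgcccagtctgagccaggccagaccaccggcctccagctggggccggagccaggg
Itgam (chr7:128062390-128062689): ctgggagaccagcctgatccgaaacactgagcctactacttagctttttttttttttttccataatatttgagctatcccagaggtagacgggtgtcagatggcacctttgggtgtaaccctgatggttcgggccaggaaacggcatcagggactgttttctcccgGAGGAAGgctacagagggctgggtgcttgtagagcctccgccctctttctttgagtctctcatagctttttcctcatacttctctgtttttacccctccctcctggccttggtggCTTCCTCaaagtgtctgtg
Itgax (chr7:128129300-128129599): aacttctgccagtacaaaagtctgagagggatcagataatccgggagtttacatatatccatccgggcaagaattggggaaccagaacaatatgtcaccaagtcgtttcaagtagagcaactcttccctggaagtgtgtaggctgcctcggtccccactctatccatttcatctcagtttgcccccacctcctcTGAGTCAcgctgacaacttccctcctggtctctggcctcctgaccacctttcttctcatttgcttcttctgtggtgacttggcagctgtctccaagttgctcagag
The Icam1 window held GGAAATTCC, which fits GGANNTTCC on either strand, with its first base at position -153 from the start. In the Itgav window CTTCCTC, the reverse complement of GAGGAAG, began at position -8. The Itgam window held GAGGAAG at position -84 and CTTCCTC at position 32, and the Itgax window held TGAGTCA, the reverse complement of TGACTCA, at position -56. The Itgb1 window, not shown, held GGGCTTTCC at position -164. No match was found in the windows of Itga4 and Itga5.

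The beta subunits had the highest levels of the 10 genes in every group. In Control, Itgb2 averaged 412 ± 45.9 FPKM (SD, n = 2) and ranked above 99.5% of the genes tested, and Itgb1 averaged 174 ± 47.3 FPKM. Below them came Itgax, Icam1, Itga5, Itgal and Itgam, of which each overlapped its neighbour in the order across the Control libraries, and then Itgav, Itga4 and Vcam1, which also overlapped in turn. In Model the order was Itgb2, Itgb1, Icam1, Itga5, Itgal, Itgax, Itgav, Itgam, Vcam1 and Itga4, and the libraries of neighbours were separate only between Itgb1 and Icam1, Itga5 and Itgal, and Vcam1 and Itga4. Vcam1 ranked above 33.0% of the genes tested by its mean in Control and above 86.5% in Model. These levels are per gene length, and 68.7% of the exon bases of Itgam also belong to another gene.

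Itgb2, the shared beta subunit of the leukocyte integrins, had 445 and 379.6 FPKM in Control replicates 1 and 2, 243 and 359 FPKM in Model and 402 and 431 FPKM in MUS. On the deposited scale both Model libraries were lower than both Control libraries and both MUS libraries, and MUS overlapped Control. On the log2 scale Model was below Control by -0.47 ± 0.36 (SE), with an adjusted p of 0.387, so the difference did not pass the test in the fit with limma. It reached the call with quantile normalization, at -1.49 and an adjusted p of 0.0375, and with voom on the recovered fragments, at -1.03.

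Itgax, which encodes CD11c, had 85.9 and 97.0 FPKM in Control, 36.9 and 74.0 FPKM in Model and 59.9 and 80.0 FPKM in MUS. Every stimulated library was below every Control library, and Model replicate 1 was the lowest. Model against Control gave a log2 fold change of -0.79 ± 0.39, with an adjusted p of 0.206, and it was -1.20 in batch 1 and -0.39 in batch 2. Itgax was called lower in Model with fragment-total scaling (log2 fold change -1.33, adjusted p = 0.0490), with rescaling after the mitochondrial genes and the 20 highest were left out (-1.42, adjusted p = 0.0474) and with voom (-1.35, adjusted p = 0.0372). Without Model replicate 1 the fold change on the deposited scale was -0.30.

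Itgal, the CD11a subunit that binds Icam1 as part of LFA-1, had 13.2 FPKM in Control replicate 1 and 65.9 FPKM in Control replicate 2, 68.1 and 75.4 FPKM in Model, and 69.4 and 73.4 FPKM in MUS. On the deposited scale 1 Control library thus lay 4.98-fold above the other and just below all 4 stimulated libraries, which were close to each other. By share of fragments on genes, Control replicate 2 (9908 of 17135442) was instead above all 4. The highest of the 4 was then Model replicate 2 (7677 of 15526321). The log2 fold change of Model against Control was 1.24 ± 0.65, with an adjusted p of 0.227. It was 2.28 in batch 1 and 0.19 in batch 2. Without Control replicate 2 it was 2.35 and called, with an adjusted p of 0.0033, and without Control replicate 1 it was 0.12.

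Itgam, which encodes CD11b, had 27.5 and 26.7 FPKM in Control, 39.2 and 32.2 FPKM in Model and 30.3 and 29.3 FPKM in MUS. On the deposited scale the libraries of the 3 groups did not overlap, with Model highest and Control lowest. The log2 fold change of Model against Control was 0.38 ± 0.25 and did not pass the test (adjusted p = 0.335), and its sign turned under 4 other scalings, between -0.24 and -0.16. Of the 5024 exon bases of Itgam, 68.7% also belong to Gm49368, a gene annotated on the same strand that had at most 0.118 FPKM, which leaves 1574 bases that are Itgam alone. If all its fragments came from those bases, Itgam would have 87.9 and 85.3 FPKM in Control, 125 and 103 FPKM in Model and 96.6 and 93.6 FPKM in MUS. Of 196 protein-coding genes with at least 99% of their exon bases in other genes, 188 (95.9%) were listed at 0 in every library, against 21.1% of the 15563 protein-coding genes with no shared exon base. The other 9 genes shared at most 11.7% of their exon bases with another gene, the highest share being that of Icam1 with Gm47079 on the opposite strand.

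**Figure D1:**
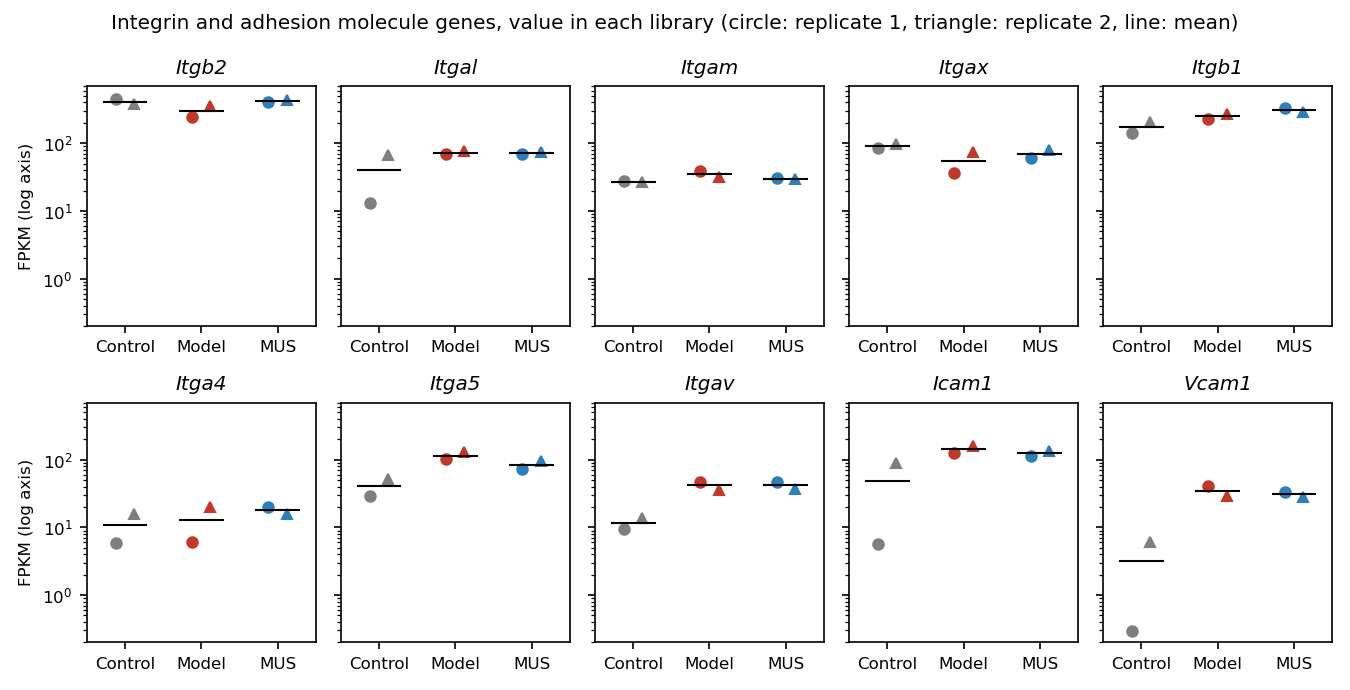
FPKM of the 10 genes in each library on a log axis, by group, with circles for replicate 1, triangles for replicate 2 and a line at the mean of the 2. In Control, the replicates of Itgal, Icam1 and Vcam1 lie 4.98-fold, 15.8-fold and 21.2-fold apart, and the Vcam1 and Itgav values of the 4 stimulated libraries lie above both Control values.

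Itgb1, the beta subunit of the fibronectin and VLA receptors, had 140.3 and 207 FPKM in Control, 229 and 268 FPKM in Model and 331 and 287 FPKM in MUS. On the deposited scale the 3 groups did not overlap, and MUS was highest. Against Control, the log2 fold change was 0.54 ± 0.35 in Model (adjusted p = 0.319) and 0.85 ± 0.35 in MUS (adjusted p = 0.118), and the sign in Model turned under 4 other scalings, between -0.38 and -0.01.

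Itgav had 9.60 and 13.8 FPKM in Control, 47.5 and 36.2 FPKM in Model and 46.7 and 36.7 FPKM in MUS. All 4 stimulated libraries were above both Control libraries, and Model and MUS were close to each other within each batch. The log2 fold change of Model against Control was 1.76 ± 0.30 (95% interval 1.04 to 2.48), with an adjusted p of 0.0116. It was 2.19 in batch 1 and 1.33 in batch 2, and between 1.16 and 1.41 under the other scalings, with the call kept. Without Model replicate 1 it was 1.57 and the adjusted p was 0.0588. The opposite-strand gene Gm13684, which shares 5.90% of the Itgav exon bases, had at most 0.408 FPKM.

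Itga5, the alpha subunit of the fibronectin receptor, had 29.0 and 51.9 FPKM in Control, 102 and 128 FPKM in Model and 73.3 and 95.8 FPKM in MUS. On the deposited scale the groups did not overlap between Control and either stimulated group, and both MUS libraries were below both Model libraries. By share of fragments on genes, MUS overlapped with both Control and Model. Model against Control gave a log2 fold change of 1.53 ± 0.37 (adjusted p = 0.0333), with 1.78 in batch 1 and 1.29 in batch 2. It lay between 0.79 and 1.01 under the other scalings, where the adjusted p was between 0.0601 and 0.193. Without Control replicate 1 it was 1.12 with an adjusted p of 0.111, without Model replicate 1 it was 1.70 with an adjusted p of 0.0871, and without Model replicate 2 it was 1.37 with an adjusted p of 0.0947. Leaving out a MUS library left the fold change as it was and moved the adjusted p to 0.0863 and 0.0853.

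Itga4, the alpha subunit of VLA-4, had 5.91 and 16.0 FPKM in Control, 6.03 and 19.7 FPKM in Model and 20.2 and 15.7 FPKM in MUS. It was low in replicate 1 of Control and of Model but not of MUS, and the groups Control and Model overlapped. Between Model and Control the log2 difference was 0.16 ± 0.59 (adjusted p = 0.869), and it turned to between -0.41 and -0.34 under 3 other scalings. Leaving out 1 library at a time gave values from -0.62 to 0.94.

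Icam1, the ligand of the Itgb2 integrins, had 5.68 FPKM in Control replicate 1 and 89.9 FPKM in Control replicate 2, or 566 and 8971 fragments. It had 124 and 160.0 FPKM in Model and 114 and 136 FPKM in MUS. On the deposited scale the 4 stimulated libraries were above both Control libraries. There the difference between the Control libraries was larger than that between Control replicate 2 and any stimulated library. By share of fragments on genes the groups overlapped. Control replicate 2 (8971 of 17135442) was then above Model replicate 1 (7616 of 15529580) and MUS replicate 1 (7522 of 16222724). In Model against Control the log2 fold change was 2.52 ± 1.05, at percentile 97.1 of the genes tested, with an unadjusted p of 0.0465 and an adjusted p of 0.142 in limma, so it was not called. It was 4.22 in batch 1 and 0.82 in batch 2. Without Control replicate 2 it was 4.41 and called (adjusted p = 0.000624), and without Control replicate 1 it was 0.64 and not called (adjusted p = 0.319).

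Vcam1, the ligand of VLA-4, had 0.291 and 6.17 FPKM in Control (59 and 1253 fragments), 40.3 and 29.5 FPKM in Model and 33.3 and 28.1 FPKM in MUS. Each stimulated library had at least 4044 fragments and lay above both Control libraries. The log2 fold change of Model against Control was 3.54 ± 0.71 (95% interval 1.87 to 5.21), at percentile 98.6 of the genes tested, with an adjusted p of 0.0184. Within batches it was 5.00 in batch 1 and 2.09 in batch 2, and under the other scalings it was between 3.11 and 4.10 and called. Without Control replicate 1 it was 2.31 and called (adjusted p = 0.0129). The call was lost without Model replicate 1 (3.32, adjusted p = 0.103) and without Model replicate 2 (3.76, adjusted p = 0.0604).

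Ratios within a library do not depend on the factor by which the library was scaled, and 6 such ratios were computed to describe the balance of the subunits. Among Itgal, Itgam and Itgax, the share of Itgax in their summed FPKM was 67.8% and 51.1% in the Control libraries, 25.6% and 40.8% in those of Model and 37.6% and 43.8% in those of MUS. The share of Itgal was 10.5% and 34.8% in Control and between 40.2% and 47.3% in the 4 stimulated libraries. The Control libraries thus had the highest shares of Itgax and the lowest of Itgal, with no overlap with the stimulated libraries. Counted on the exon bases that are Itgam alone, a choice made after the data were seen, the share of Itgax was 45.9% and 39.1% for the Control libraries, 16.0% and 29.4% for those of Model and 26.5% and 32.4% for those of MUS. The share of Itgal was then 7.08% and 26.6% in Control and 29.6% to 30.7% in the stimulated libraries, again without overlap. Since Itgam and Itgax are neighbours, their ratio was also taken, and Itgam over Itgax was 0.320 and 0.276 in the Control libraries, 1.06 and 0.435 in those of Model and 0.505 and 0.367 in those of MUS. The low ratio of Model replicate 2 was closer to MUS than to Model replicate 1. On the unshared bases of Itgam the ratio was 1.02 and 0.879 for the Control libraries, 3.39 and 1.39 for those of Model and 1.61 and 1.17 for those of MUS. Itgam over Itgal overlapped between the groups, at 2.08 and 0.405 in Control and 0.574 and 0.426 in Model, and its log2 difference between Model and Control was -0.89 and turned to 0.29 without Control replicate 1. Itgal, Itgam and Itgax summed were 0.285 and 0.500 times Itgb2 in Control and 0.594 and 0.505 times in Model. In MUS they were 0.397 and 0.424 times Itgb2, within the range of the Control libraries.

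**Figure D2:**
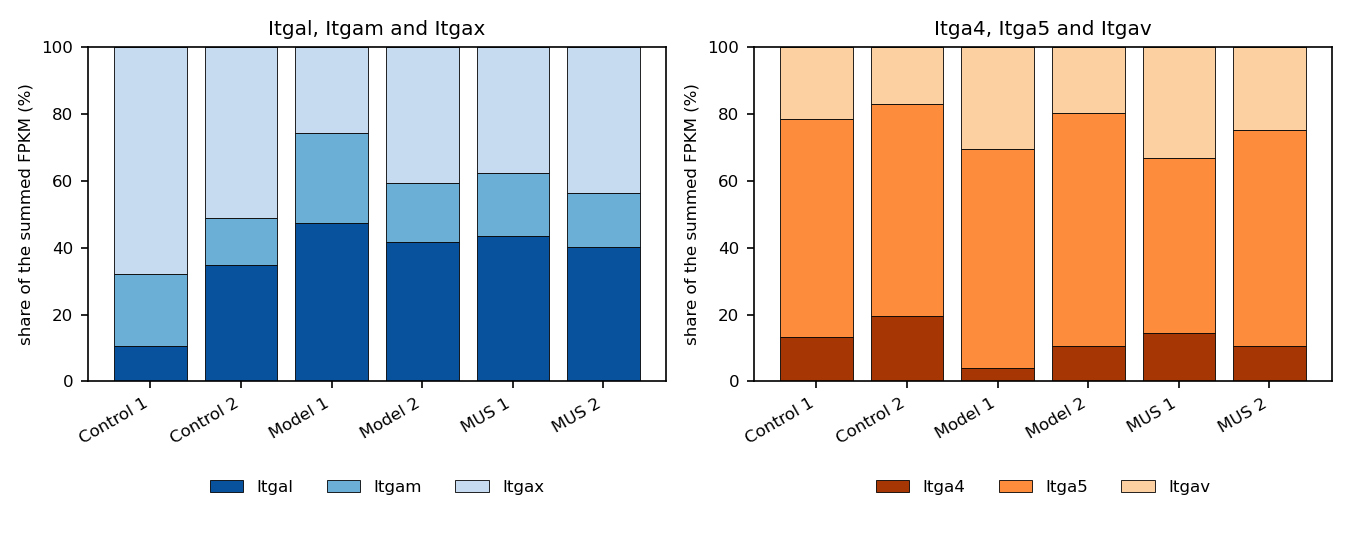
Share of each alpha subunit gene, in percent, of the summed FPKM of Itgal, Itgam and Itgax (left) and of Itga4, Itga5 and Itgav (right) in each library, drawn as stacked bars that add to 100. The Itgax share is 67.8% and 51.1% in Control and between 25.6% and 43.8% in the other libraries, and the Itga5 share is between 52.3% and 69.6% in all 6.

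For the Itgb1 partners, Itga4, Itga5 and Itgav summed were 0.317 and 0.395 times Itgb1 in Control, 0.677 and 0.687 times in Model and 0.424 and 0.516 times in MUS. For this sum the 3 groups did not overlap, with MUS between Control and Model. On the log2 scale the difference was 0.95 between Model and Control and -0.54 between MUS and Model, with an SD of 0.22 among the Control libraries, 0.01 for Model and 0.20 for MUS. Itga5 was the largest of these alpha subunits in every library, with 52.3% to 69.6% of their sum. Icam1 was 19.5 and 14.6 times Vcam1 in Control, 3.07 and 5.43 times in Model and 3.43 and 4.83 times in MUS, and this ratio was higher in both Control libraries than in any stimulated library. The exact permutation test, two-sided, gave p = 0.333 for the Model against Control difference in 5 of the 6 ratios and p = 1.0 for Itgam over Itgal, and 0.333 is the smallest p that 2 against 2 libraries allow.

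Model vs. Control asks which adhesion genes differ after LPS and ATP. Of the 10 genes, 3 were DEGs (differentially expressed genes, with an adjusted p of at most 0.05 by the Benjamini-Hochberg method in limma and a log2 fold change beyond 1 in either direction), all higher on the deposited scale, namely Vcam1, Itgav and Itga5. Over all genes tested, 15.1% were DEGs, 9.5% higher and 5.56% lower. The other scalings called 2 higher, Vcam1 and Itgav, and 1 lower with fragment-total scaling, rescaling and quantile normalization or 2 lower with voom. At an unadjusted p under 0.05 there were 4 of the 10, the 3 DEGs and Icam1, against 33.6% of all genes. The median log2 fold change of the 10 was 0.89, against 0.04 for all genes tested, and 8 of the 10 were above 0, which fell to 5 with fragment-total scaling. On the deposited scale the libraries of the groups did not overlap for 9 of the 10, against 61.1% of all genes tested. Both Model libraries were there above both Control libraries for 7 (32.6% of all genes) and below them for 2 (28.5%). By share of fragments on genes, the groups overlapped for Itgal, Icam1 and Itgb1, and Itgam was lower in both Model libraries. The count of DEGs depended on the libraries: without Control replicate 2 it was 5, with Itgal and Icam1 added, without Model replicate 1 it was 0, and without Model replicate 2 it was 1, Itgav.

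MUS vs. Model asks what muscone changed in stimulated cells. None of the 10 genes was a DEG, and none had an unadjusted p under 0.05, whereas 825 of all genes tested (8.42%) did so. Of all genes, 0 (0%) were DEGs in limma, likewise 0 with voom. With only the 2 groups in the fit, 5 of all genes were higher and 2 lower DEGs. With the replicate number added to the fit, 2 were higher and 2 lower. The paper reported DEGs in this comparison with DESeq2, which was not run here. The largest difference was that of Itga4, 0.64 ± 0.59 on the log2 scale (95% interval -0.75 to 2.03), which was 1.59 in batch 1 and -0.31 in batch 2 and turned to -0.14 without Model replicate 1. The intervals were wide for the ligands, from -2.65 to 2.30 for Icam1 and from -1.84 to 1.502 for Vcam1, and narrower for Itgam, from -0.85 to 0.36, and Itgav, from -0.72 to 0.72. A difference of 1 on the log2 scale lay outside the interval in both directions for Itgam and Itgav, and inside it in at least 1 direction for the other 8 genes.

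In this comparison, on the deposited scale, the libraries did not overlap for 4 of the 10 genes, against 42.1% of all genes tested, with 2 higher (21.2%) and 2 lower (21%) in MUS. Itgb2 was higher in both MUS libraries, by 0.49 ± 0.36 (adjusted p = 0.764), and Itgb1 by 0.32 ± 0.35 (adjusted p = 0.871). Itga5 was lower in both MUS libraries, at -0.44 ± 0.37 (adjusted p = 0.813), and Itgam at -0.24 ± 0.25 (adjusted p = 0.855). For Itga5 the difference was -0.46 in batch 1 and -0.42 in batch 2, each a single library subtracted from another, which gives no measure of spread. The median of the 10 genes was -0.00, against 0.01 for all genes tested.

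MUS vs. Control compares cells given LPS, ATP and muscone together with untreated cells. It shares its Control libraries with Model vs. Control and its MUS libraries with MUS vs. Model. Vcam1, with a log2 fold change of 3.37 ± 0.71 (adjusted p = 0.0166), and Itgav, with 1.76 ± 0.30 (adjusted p = 0.00913), were the 2 DEGs among the 10 genes, both higher, where 20.2% of all genes tested were DEGs, 11.3% higher and 8.91% lower. At an unadjusted p under 0.05 there were 4 of the 10, against 39.7% of all genes. Itga5 had 1.09 ± 0.37 and was not called (adjusted p = 0.0730). Icam1 had 2.35 ± 1.05 (adjusted p = 0.142) and Itgal 1.23 ± 0.65 (adjusted p = 0.205). On the deposited scale the libraries did not overlap for 8 of the 10, against 73.3% of all genes tested, with 7 higher in MUS (39.6%) and 1, Itgax, lower (33.8%). Under the other scalings Vcam1 lay between 3.02 and 3.94 and Itgav between 1.24 and 1.45, with both calls kept. Without Control replicate 2 there were 5 DEGs, without MUS replicate 1 there were 0, and without MUS replicate 2 there were 0. Vcam1 then had 3.26 (adjusted p = 0.121) without MUS replicate 1 and 3.49 (adjusted p = 0.0784) without MUS replicate 2, and Itgav 1.59 (adjusted p = 0.104) and 1.93 (adjusted p = 0.0528).

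**Figure D3:**
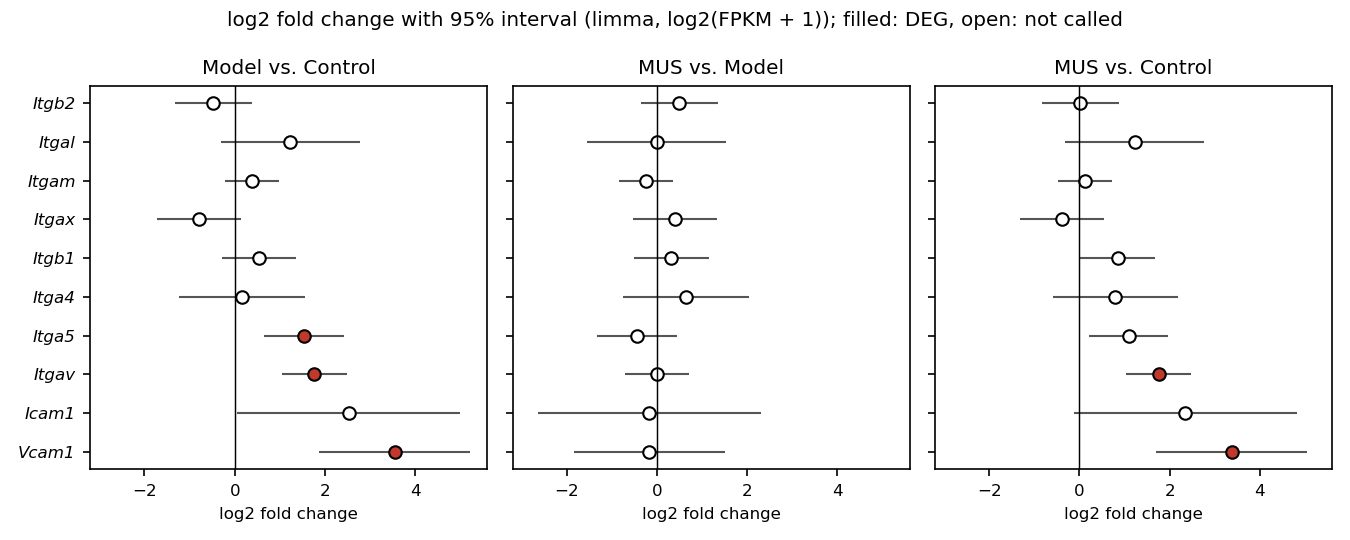
log2 fold change of the 10 genes in Model vs. Control, MUS vs. Model and MUS vs. Control, as points with the 95% interval from limma on log2(FPKM + 1), filled where the gene was a DEG. Vcam1, Itgav and Itga5 are filled in Model vs. Control, no gene is filled in MUS vs. Model, where every interval crosses 0, and Vcam1 and Itgav are filled in MUS vs. Control.

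The other integrin subunits were mostly below the filter. Of 12 other alpha subunits 2 were tested, and of 6 other beta subunits 4 were tested. In Model against Control Itgb8, a partner of Itgav in the activation of latent TGF-beta, rose from 0.0791 and 0.775 FPKM to 11.2 and 14.6 FPKM, a log2 fold change of 3.32 ± 0.29 (adjusted p = 0.00157), and it was called under all 17 alternatives. It had 12.8 and 10.9 FPKM in MUS. Itgb3, another partner of Itgav, fell from 3.25 and 2.06 FPKM to 0.516 and 0.503 FPKM, a log2 fold change of -1.26 ± 0.25 (adjusted p = 0.0183), kept its direction under the other scalings and its call under 10 of 16 alternatives. Itgb5, a further partner and the most abundant of the list, had 82.6 and 22.8 FPKM in Control and 15.1 and 14.4 FPKM in Model and was not called (-1.501 ± 0.54, adjusted p = 0.0994). Itga9, a partner of Itgb1 that binds Vcam1 and osteopontin, rose from 1.04 and 0.966 FPKM to 2.73 and 4.61 FPKM (1.19 ± 0.25, adjusted p = 0.0211), a call kept under 7 of 16 alternatives. Itga6, a laminin receptor subunit and the most abundant other alpha subunit, had 15.8 and 5.35 FPKM in Control and 3.20 and 2.94 FPKM in Model (-1.34 ± 0.42, adjusted p = 0.0715). Itgad, a partner of Itgb2, had at most 0.0485 FPKM, and Itgae, a partner of Itgb7, at most 0.0928 FPKM.

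Among 16 other cell adhesion receptors and selectins, 6 were tested, and in Model against Control 2 were DEGs, both higher, where 9.5% of all genes tested were higher and 5.56% lower DEGs. Cd44, the hyaluronan receptor and the most abundant of the list, had 72.4 and 116 FPKM in Control and 393 and 261 FPKM in Model (log2 fold change 1.79 ± 0.39, adjusted p = 0.0235), and its call held under 10 of 17 alternatives. Cd47, a ligand of SIRP-alpha and a receptor for thrombospondin, had 25.3 and 35.4 FPKM in Control and 111 and 96.4 FPKM in Model (1.75 ± 0.30, adjusted p = 0.0115), and its call held under 15 of 17. In MUS against Control Cd44, Cd47 and Alcam were DEGs, all higher, where 11.3% of all genes were higher DEGs. Alcam had 1.02 ± 0.29 (adjusted p = 0.0410), and with the replicate block its adjusted p was 0.0643. Its call was kept under 8 of 17 alternatives and under none of the 4 other scalings, where it had 0.38 to 0.50 (adjusted p between 0.181 and 0.348). Cd44 in MUS against Control had 0.73 to 0.93 under those scalings and was not called.

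Of 26 genes of integrin activation and adhesion signalling 20 were tested, and in Model against Control 4 were higher and 1 was lower, where 9.5% of all genes tested were higher and 5.56% lower DEGs. Those that rose were the Src-family kinases Src (2.68 ± 0.68, adjusted p = 0.0374) and Lyn (1.95 ± 0.34, adjusted p = 0.0120), the focal adhesion protein Zyx (2.14 ± 0.29, adjusted p = 0.00577) and the small GTPase Rap1b (1.47 ± 0.39, adjusted p = 0.0450), which activates integrins from inside the cell. Rap1b, the most abundant of the list, was not called with the replicate block (adjusted p = 0.0669) or under the 4 other scalings, which gave 0.40 to 0.93. Of 17 alternatives, the call in Model against Control was kept under 17 for Zyx, 15 for Lyn, 6 for Src and 5 for Rap1b. Parvg, a parvin that binds integrin-linked kinase, fell (-1.23 ± 0.22, adjusted p = 0.0133). The talin gene Tln1, whose product binds the beta subunit tail, averaged 54.2 ± 3.29 FPKM in Control and 42.6 ± 29.3 FPKM in Model and overlapped between the groups. In MUS against Control, where 11.3% of all genes were higher and 8.91% lower DEGs, 4 rose, Lyn, Zyx, Rap1b and Ptk2 (focal adhesion kinase), and 2 fell, Parvg and Fermt3. Fermt3, the kindlin of leukocytes, had 46.8 and 44.4 FPKM in Control and 15.7 and 24.9 FPKM in MUS (-1.16 ± 0.31, adjusted p = 0.0348). Its call was kept under 12 of 17 alternatives and lost without the filter on low values (adjusted p = 0.113). The call was also lost when any 1 Control or MUS library was left out, where the log2 fold change was between -1.48 and -0.84. Rap1b in MUS against Control had 1.40 ± 0.39 (adjusted p = 0.0418, and 0.0623 with the replicate block), and 0.45 to 0.87 under the other scalings, where it was not called.

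Of 10 soluble and matrix ligands of integrins 6 were tested. Thbs1, the matrix protein thrombospondin, was the 1 DEG in Model against Control, where 15.1% of all genes tested were DEGs. It had 90.0 and 48.8 FPKM in Control, 334 and 399 FPKM in Model and 589 and 573 FPKM in MUS, with log2 fold changes of 2.44 ± 0.39 in Model (adjusted p = 0.00907) and 3.11 ± 0.39 in MUS (adjusted p = 0.00367) against Control. Spp1, which encodes osteopontin and was the most abundant ligand, had 769 and 619.9 FPKM in Control and 1121 and 702 FPKM in Model, with overlapping libraries. In MUS against Model 0 of the 38 tested genes of these 5 lists were DEGs, as were 0% of all genes tested. In limma 1 of the 38, Icam2, had an unadjusted p under 0.05 (-0.60 ± 0.25, adjusted p = 0.590), against 8.42% of all genes tested.

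**Figure D4:**
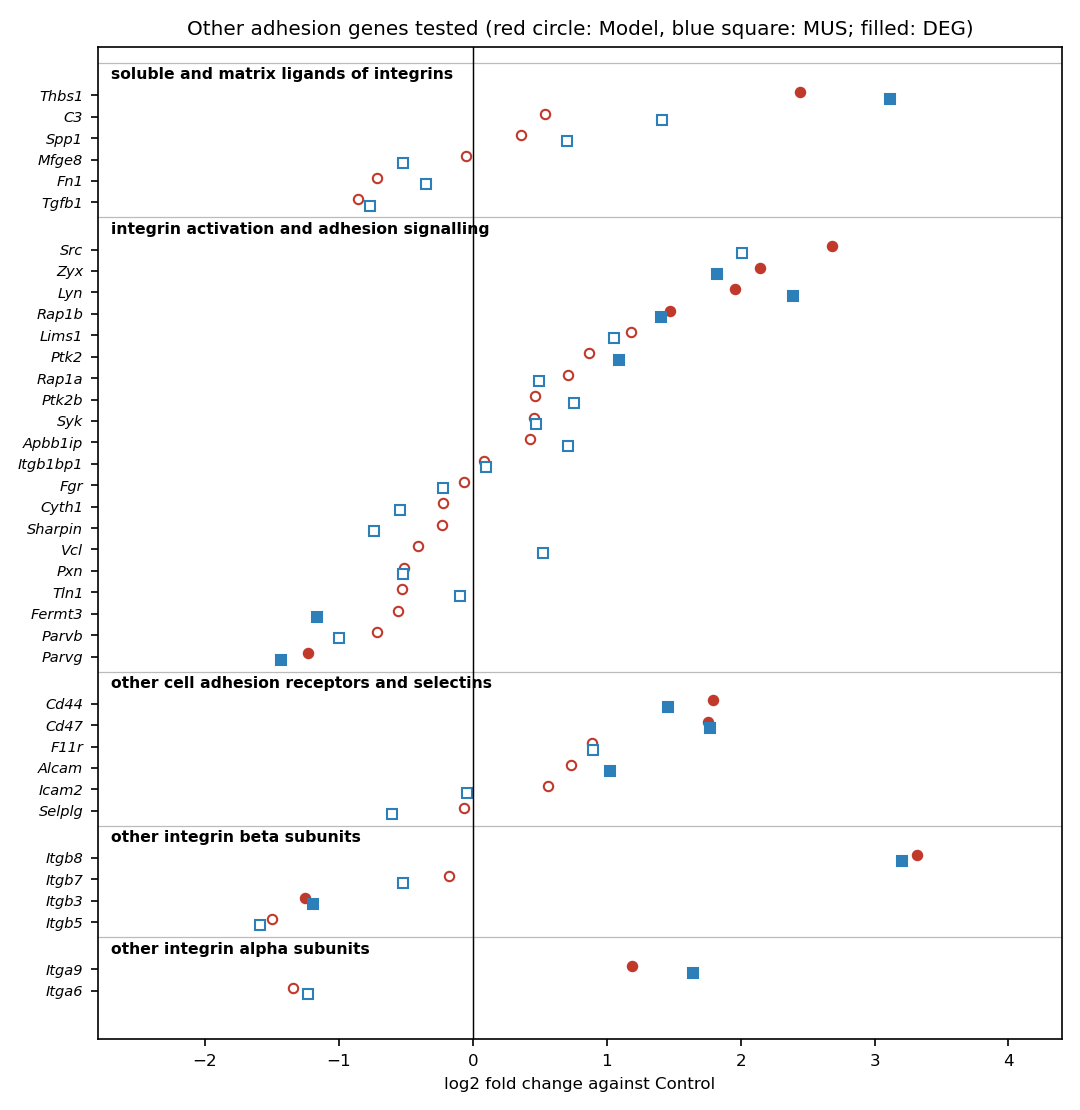
log2 fold change against Control of the 38 other adhesion genes tested, by list, with red circles for Model and blue squares for MUS, filled where the gene was a DEG. Itgb8 is the farthest to the right in Model at 3.32, Itgb3, Parvg and, in MUS, Fermt3 are filled below 0, and most genes of the lists are open.

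The labelled cell type was checked against markers. All 6 macrophage markers were tested, and their summed level was 11916 to 13711 FPKM in Control, 9395 to 14083 FPKM in Model and 11212 to 13072 FPKM in MUS. Among them Cd14 rose in Model against Control (2.64 ± 0.59, adjusted p = 0.0258) and Csf1r fell (-1.37 ± 0.32, adjusted p = 0.0289). Other leukocytes that carry these integrins had little signal: 0 of 5 dendritic cell markers, 0 of 6 T and natural killer cell markers, 0 of 5 B cell markers and 0 of 5 mast cell markers passed the filter, with summed levels of at most 2.22, 1.26, 1.87 and 1.17 FPKM. Of 5 neutrophil markers S100a8 was tested and rose in Model (1.90 ± 0.48, adjusted p = 0.0365), with 13.5 and 30.6 FPKM in Control, then 110.0 and 56.5 FPKM in Model, and 64.0 and 50.3 FPKM in MUS, while Ly6g, Elane and S100a9 were listed at 0 in all libraries. A value of 0 in this table need not mean that a gene was silent: S100a9, whose product pairs with that of S100a8, shares no exon base with another gene, and Ilk, a gene in general use in cells, of whose exon bases 89.7% lie in other genes, had at most 0.0159 FPKM. Of 4 eosinophil markers only Siglecf was tested, and Epx and Prg2 were listed at 0. Siglecf was lower in Model against Control but not called (-0.83 ± 0.25, adjusted p = 0.0661 in limma). The summed eosinophil markers had 2.78 to 4.17 FPKM in Control, 1.42 to 1.95 FPKM in Model and 1.60 to 1.63 FPKM in MUS. Of 9 mesothelial, stromal and endothelial markers 4 were tested, with summed levels of 17.7 to 19.4 FPKM in Control, 21.6 to 33.3 FPKM in Model and 21.9 to 23.9 FPKM in MUS, and Dcn rose in Model (1.18 ± 0.23, adjusted p = 0.0161). Their part in the levels of Vcam1, Icam1 and the integrins was not tested.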

How the data were processed

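The labels of the samples gave the groups and replicate numbers, and give each replicate number as a batch. The authors deposited 1 table of FPKM with a column per library, and all 6 columns were used (0 had no sample). The methods name RSEM for FPKM, whereas the submitters' processing notes name HISAT2, featureCounts 1.5.0-p3 and GRCm39. The deposited gene positions match GENCODE M21 on GRCm38 for 98.3% of 54495 genes, and for all 10 genes described here. FPKM times gene length gave whole fragments for 100.0% of values within a tolerance of 0.1 of 1 fragment. At a length of 1 kb, a count of 0 allows up to 3 fragments, or 0.131 to 0.213 FPKM, which covers counting error only. The library kit does not mark strand.

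The genes and the other lists were chosen with earlier results of these data known. In R 4.3.3 with limma 3.58.1, lmFit, contrasts.fit and eBayes with a trend were run on log2(FPKM + 1) for 9794 genes (mean of at least 1 FPKM), with all 6 libraries in 1 model of 3 groups (3 residual and 4.04 prior degrees of freedom). Fold changes are on that log2 scale, which understates those of low genes. Batch differences are single libraries subtracted on that scale. Adjustment followed Benjamini and Hochberg. Named genes were the 10 genes and, from each other list, up to 5 DEGs per comparison with the largest change and the gene with the highest mean FPKM. Tln1, Icam2, Ptk2, Itgad, Itgae and the markers were named after their values were seen. Beside the 26 genes of integrin activation and adhesion signalling that were counted, 1 gene was taken off that list and is not reported here. Where a group had 1 library left out, the lone library was assumed to vary like the other groups. The authors called DEGs with DESeq2, which was not run here, and voom on the recovered fragments served as an alternative. Voom is counted among the other scalings but used the same library totals as fragment-total scaling, so these are not separate checks of the scale. The fit was tested on simulated data. Python 3.11.15 (pandas 2.3.3, NumPy 2.4.6, Matplotlib 3.10.9) served for tables, sequences and plots.

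Replicates of the same number share a batch by the labels. The differences between replicates 1 and 2 correlated across genes at 0.12 between Control and Model, 0.14 between Model and MUS and -0.09 between Control and MUS, and the block was used as an alternative, since the study's methods use none.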

Additional observations from a re-analysis of the deposited data

How the results depend on the processing

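With 2 libraries a group, the spread rests on few libraries. Of the 10 genes, 3 were DEGs in Model against Control, 0 without the filter on low values, 0 to 5 when 1 library was left out, and 3 or 4 under the other scalings, of which 1 or 2 lower. In MUS against Control 2 were DEGs, 0 without the filter, and 0 to 5 when 1 library was left out. Leaving out Control replicate 2 and Model replicate 1 together, an alternative chosen after the data were seen, gave 6 and 7. With both left out, the share of DEGs among all genes tested also rose in both comparisons against Control. The rise was thus not confined to the 10 genes. In MUS against Model 0 of the 10 were DEGs under all 17 alternatives. The replicate block changed no call among the 10 genes, and among the named genes of the other lists it ended the calls of Rap1b and Alcam given above.

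Over all genes, 930 were higher and 545 lower DEGs in Model against Control, against 647 and 1633 with fragment-total scaling, 581 and 1857 with rescaling that left out mitochondrial genes and the 20 highest, 707 and 715 with quantile normalization and 684 and 2050 with voom. In MUS against Control 1107 were higher and 873 lower, against 743 and 2044, 720 and 2035, 885 and 1102, and 758 and 2386. The share of DEGs in Model against Control (15.1%) was 0.861% without the filter, 8.14% with only the 2 groups, and 7.07% to 21.2% when 1 library was left out. In MUS against Control (20.2%) it was 1.51% without the filter and 1.88% to 24.5% when 1 library was left out.

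Signs turned in 44 of 510 results of the 10 genes, none of them called. In the order fragment-total scaling, rescaling, quantile normalization and voom, Model against Control gave -0.16, -0.24, -0.18 and -0.16 for Itgam and -0.0087, -0.094, -0.38 and -0.0081 for Itgb1. Itga4 gave -0.34, -0.41 and -0.38 with fragment-total scaling, rescaling and voom, and -0.62 to 0.94 when 1 library was left out. In MUS against Model, Itgal gave 0.0014, 0.076, 0.069 and 0.0014, and -0.080 to 0.065 when 1 library was left out. Itgav gave 0.0081, 0.083, 0.038 and 0.0084, and -0.19 to 0.19. With 1 library left out, Itgax gave -0.095 to 0.89, Itga4 -0.14 to 1.42, Icam1 -0.36 to 0.0075 and Vcam1 -0.39 to 0.051. With Control replicate 2 and Model replicate 1 left out together, Itgax gave -0.095, Itga4 -0.14, Itgav 0.19 and Vcam1 0.051. In MUS against Control, Itgam gave -0.39, -0.40, -0.37 and -0.40, and Itgb2 -0.52, -0.53, -0.89 and -0.52, with -0.10 to 0.13 when 1 library was left out and -0.10 with both left out. The cause was not tested.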
